A study of Mus musculus with 74 samples.

Results

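The 9 genes described here encode the enzymes, cytokine, receptor and kinase by which tuft cells are usually recognised as secretory cells. They are Ptgs1, Hpgds, Alox5, Alox5ap and Ltc4s of eicosanoid synthesis, Il25 and its receptor gene Il17rb, the acetylcholine-synthesizing Chat, and the kinase gene Bmx. They were chosen by name, for their known roles, but with earlier results of these data known. They make up 9 of the 17853 genes listed in any of the 6 deposited tables, 14637 of which are in every table. The study sorted mature medullary thymic epithelial cells (mTEChi, the thymus cells that express the autoimmune regulator Aire) from mice aged 4 to 7 weeks and sequenced 3′ ends of their RNA by bulk MARS-seq. It compared mice carrying different Aire alleles with controls of the same table, to see how each allele alters the transcriptome of these cells.

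On the C57BL/6 background the groups were Aire -/- (n = 4), Aire +/- (n = 5) and Aire +/+ (n = 3); Y86C/Y86C, +/Y86C and +/+ (n = 3 each); C313X/C313X (n = 3), +/C313X (n = 2) and +/+ (n = 3); and C442G/C442G (n = 6), +/C442G (n = 5) and +/+ (n = 3). On the NOD background they were V303M/V303M, +/V303M and +/+ (n = 3 each), Aire -/- and Aire +/- (n = 3 each), +/C313Y (n = 4), Aire -/C313Y with 1 null and 1 C313Y allele (n = 3), and Aire +/+ (n = 8). The 8 NOD wild types bore 2 forms of title, so +/C313Y was set against the 5 whose titles open with a number as its own do, 2 of which read C313T, and -/C313Y against the 3 whose titles share its own form. The titles of the NOD nulls also open with a number but, unlike those of all 8 wild types, name neither C313Y nor C313T. The nulls were set against Aire +/-, whose titles are formed like theirs. The labels do not say whether libraries came from separate animals, and the p-values below measure the spread between libraries, which may be partly technical. One further library, whose title calls it wild type but which is given the genotype -/-, was put in no group.

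The 73 assigned libraries held between 1016619 and 7225403 counts. Levels are given as CPM, a library's counts scaled to the same total, while log2 fold changes come from edgeR with its TMM scaling, so the 2 need not match exactly. Without the scaling factors the median gene's log2 fold change was lower by 0.25 in the Y86C homozygotes, by 0.20 in the C313X and C442G homozygotes, by 0.13 in the C442G heterozygotes and by 0.11 in the C57BL/6 nulls, each against wild type. It was lower by 0.19 in the Y86C and 0.26 in the C313X homozygotes against heterozygotes, and by between 0.11 and 0.15 in the 3 comparisons of the NOD null and C313Y alleles. No member's called change reversed on that scale. A gene counts as called where its edgeR p, after Benjamini-Hochberg adjustment over every tested gene of the table, was under 0.05. Aire itself gave between 1690 and 4290 mean CPM in the 21 groups, and its 3′ tags, counted in every genotype, do not check the labels. Of 26 genes fixed as tuft cell identity markers, 24 or 25 were listed in each table and each of those was detected in every group. The 9 genes gave low counts in these bulk sorts, averaging 183 counts a library for Ltc4s, 84.7 for Ptgs1, 72.1 for Alox5ap, 66.3 for Alox5, 39.5 for Bmx, 30.4 for Il17rb, 24.1 for Il25, 12 for Hpgds and 5.11 for Chat. Il25 was at 0 in 1 library and Chat in 4. Chat passed the filter on low counts only in the C442G and NOD tables, which leaves 8 members tested in the other 4.

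Eicosanoids are signalling lipids made from arachidonic acid. Cyclooxygenase-1, encoded by Ptgs1, makes the prostaglandin precursor that the hematopoietic prostaglandin D synthase (Hpgds) turns into prostaglandin D2; 5-lipoxygenase (Alox5) with its activating protein (Alox5ap) makes leukotriene A4, which leukotriene C4 synthase (Ltc4s) conjugates to glutathione to give the cysteinyl leukotrienes. Tuft cells are chemosensory epithelial cells, present also in the thymic medulla, that release these lipids together with interleukin-25 (Il25) and acetylcholine, made by choline acetyltransferase (Chat). Il17rb encodes the interleukin-25-binding chain of its receptor, and Bmx is a cytoplasmic tyrosine kinase of the TEC family that is much used as a tuft cell marker. In bulk samples such as these, fewer cells of a type and less RNA per cell cannot be told apart.

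The sequences just before the gene starts are shown for Ptgs1, Alox5 and Bmx, whose rise in the C57BL/6 nulls over wild type was called in every fit that left out 1 library, for Ltc4s, the gene most often called lower, and for Hpgds, the 1 gene with an octamer. RefSeq start windows on GRCm38.p6 matched 7 of the 9 genes, and Alox5ap and Il25 had none. Each line gives the 250 bases before the start that this RefSeq table uses, 5′ to 3′ on the gene's strand, with CG pairs in capitals and, in Hpgds, also the octamer ATGCAAAT.
Ptgs1 (chr2:36230176-36230425, plus strand): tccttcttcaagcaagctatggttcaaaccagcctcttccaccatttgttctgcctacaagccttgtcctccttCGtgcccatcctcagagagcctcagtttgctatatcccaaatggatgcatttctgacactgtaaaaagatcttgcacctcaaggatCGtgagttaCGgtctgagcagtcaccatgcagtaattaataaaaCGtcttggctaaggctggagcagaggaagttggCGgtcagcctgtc
Alox5 (chr6:116461179-116461428, minus strand): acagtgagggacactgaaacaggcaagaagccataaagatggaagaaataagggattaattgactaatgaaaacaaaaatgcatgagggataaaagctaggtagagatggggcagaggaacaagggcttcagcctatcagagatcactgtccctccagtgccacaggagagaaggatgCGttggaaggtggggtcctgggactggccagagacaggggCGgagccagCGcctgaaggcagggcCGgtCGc
Bmx (chrX:164258194-164258443, minus strand): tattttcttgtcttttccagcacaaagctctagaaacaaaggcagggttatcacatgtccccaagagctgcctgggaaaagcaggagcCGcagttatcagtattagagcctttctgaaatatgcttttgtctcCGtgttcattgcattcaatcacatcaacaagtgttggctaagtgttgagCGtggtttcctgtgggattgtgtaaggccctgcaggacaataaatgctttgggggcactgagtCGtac
Ltc4s (chr11:50238533-50238782, minus strand): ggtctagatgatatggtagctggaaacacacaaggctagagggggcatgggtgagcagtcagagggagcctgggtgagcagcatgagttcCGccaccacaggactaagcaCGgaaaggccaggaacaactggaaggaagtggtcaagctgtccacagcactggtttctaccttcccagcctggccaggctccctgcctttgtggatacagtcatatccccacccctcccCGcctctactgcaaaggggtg
Hpgds (chr6:65144731-65144980, minus strand): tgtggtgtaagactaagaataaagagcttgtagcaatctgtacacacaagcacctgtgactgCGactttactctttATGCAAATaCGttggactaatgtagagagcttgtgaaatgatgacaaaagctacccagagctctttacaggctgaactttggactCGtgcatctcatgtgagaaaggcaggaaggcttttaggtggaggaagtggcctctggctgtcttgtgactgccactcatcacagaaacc
The octamer, the element bound by POU-domain factors, was searched on both strands of the 300-base windows that run 50 bases past the start. It was present in 1 of the 7 member windows, that of Hpgds, 174 bases before the start used, and in 1.74% of 32851 RefSeq windows. Other annotated starts lie upstream of some of these. Of the 250 bases, 178 for Hpgds and 84 for Ltc4s fall inside the gene as GENCODE bounds it, and the windows of Hpgds and Ptgs1 lie wholly inside the gene as RefSeq bounds it. The octamer of Hpgds, at chr6:65144897-65144904, is inside the gene in both. CG pairs were counted after that search. The 250 bases printed above hold 5 CG pairs for Ptgs1, 5 for Alox5, 4 for Bmx, 3 for Ltc4s and 3 for Hpgds. The 300-base windows of Ptgs1 and Ltc4s held 6 CG pairs each, Alox5 7, Hpgds 5, Bmx 4 and Chat 10, against a median of 7 over all windows. Il17rb stood apart with 32 pairs and a GC content of 72%. These are descriptions of the letters in the windows and say nothing of binding.

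In the C57BL/6 Aire -/- against Aire +/+, 4 of 8 tested members were called higher and none lower, where 17.7% of 12700 genes tested were called higher and 18.9% lower. Hpgds is 1 of those 4 and was tested there through its null and heterozygote libraries alone, so its call adds little to the count. The median log2 fold change of the members was 1, against -0.01 over all genes, and 7 of the 8 fold changes were positive. In Y86C/Y86C against +/+, 4 of 8 were called lower and none higher (27.9% of 13309 genes were called lower and 21.7% higher, 49.6% in all), with a member median of -0.64 and an all-gene median of -0.03. Il25 is 1 of those 4 and was tested there through its wild-type and heterozygote libraries alone, so its call adds little to the count. In C442G/C442G against +/+, 4 of 9 were called lower and none higher (23.1% of 13624 genes lower, 19.5% higher), with medians of -0.83 and -0.00. Chat is 1 of those 4 and was tested there through its wild-type and heterozygote libraries alone, and without it 3 of 8 were lower, with a median of -0.55. In C313X/C313X against +/+, none of 8 was called by edgeR or DESeq2 (7.85% of 13626 genes higher and 15.2% lower, 23.1% in all), 1 had an unadjusted p under 0.05, and the medians were -0.43 and -0.03. On library totals without scaling factors fewer of all called genes were higher, 34.9% in place of 48.4% in the null, 23.7% in place of 43.7% in Y86C, 25.9% in place of 45.8% in C442G and 18.7% in place of 34% in C313X homozygotes against wild type. In homozygotes against heterozygotes these shares were 34.9% in place of 48.2%, 21.6% in place of 41.1%, 19% in place of 31.2% and 14.7% in place of 31.6% for the same alleles, and in heterozygotes against wild type 49.4% in place of 69% for Y86C and 29.9% in place of 49.4% for C442G.

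**Figure D1:**
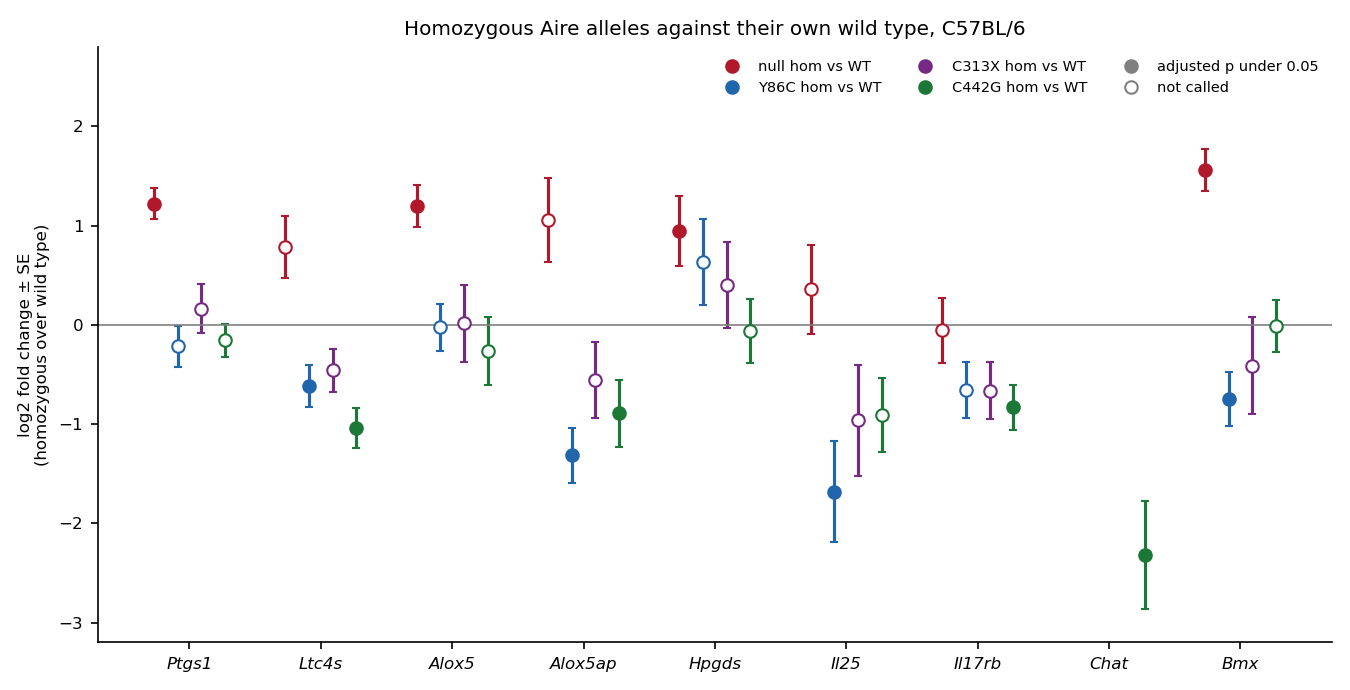
Log2 fold change of each member in the homozygous mutants of the 4 C57BL/6 alleles over the wild types of their tables, with standard errors from edgeR and filled points for adjusted p under 0.05. The filled points of the null lie above 0 and those of Y86C and C442G below it.

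Ptgs1 (GRCm38 chr2:36230426-36252272, plus strand), the entry enzyme of prostaglandin synthesis, gave 50.7, 56.5, 60.6 and 66.6 CPM in the C57BL/6 Aire -/- libraries. Aire +/- gave 34.9, 38.5, 40.6, 42.1 and 48.7 CPM, and Aire +/+ gave 21.5, 29.0 and 31.9 CPM. The groups did not overlap at any step, with the nulls highest and the heterozygotes between. Ptgs1 rose by a log2 fold change of 1.22 ± 0.16 (SE, adjusted p = 2.95e-07) in the nulls over wild type and by 0.61 ± 0.13 (adjusted p = 0.000362) over the heterozygotes. The heterozygotes over wild type gave 0.61 ± 0.16, which was not called (adjusted p = 0.0826).

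Under the missense alleles Ptgs1 was not called in homozygotes. The Y86C homozygotes averaged 33.8 ± 13.7 CPM, against 44.2 ± 2.31 CPM in their wild types (SD, n = 3 each), and overlapped them. The C442G homozygotes averaged 28.2 ± 5.54 CPM, against 36.1 ± 2.34 CPM in wild type (n = 6 and 3), with a log2 fold change of -0.16 ± 0.16 (adjusted p = 0.471). The C442G heterozygotes, in contrast, gave 17.4, 22.03, 22.3, 25.8 and 28.4 CPM, all under the 34.3, 35.3 and 38.7 CPM of wild type. Ptgs1 was the 1 of 9 members called there, at -0.48 ± 0.17 (adjusted p = 0.0366), where 26.5% of genes were called in either direction. That call was lost in 5 of 8 fits that left out a library (adjusted p up to 0.135), and the count of members called ran between 0 and 3.

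Hpgds (chr6:65117293-65144908, minus strand), which makes prostaglandin D2, gave 5.14, 6.39, 7.74 and 10.02 CPM in Aire -/- and 3.65, 4.12 and 4.73 CPM in Aire +/+ of the C57BL/6 background. Every null lay above every wild type, and no wild type reached the 4.82 CPM floor of the filter on low counts. The log2 fold change of 0.94 ± 0.35 was called (adjusted p = 0.0356) but not without any 1 of the 3 wild types or of 2 nulls, nor by DESeq2 (adjusted p = 0.0813) or with a term for sex (0.056). Hpgds was called in no other comparison.

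Alox5 (chr6:116410077-116461178, minus strand), the 5-lipoxygenase, gave 44.2, 50.7, 61.1 and 71.0 CPM in Aire -/- of the C57BL/6 background. Aire +/- gave 22.04, 37.0, 39.2, 42.6 and 53.3 CPM, and Aire +/+ gave 25.4, 25.9 and 28.9 CPM. All nulls lay above all wild types, and 1 heterozygote lay below the wild types. Alox5 rose by 1.20 ± 0.21 in the nulls over wild type (adjusted p = 0.000112) and by 0.66 ± 0.17 over the heterozygotes (adjusted p = 0.00486). In the Y86C homozygotes its log2 fold change was -0.03 ± 0.23, in C313X 0.01 ± 0.39 and in C442G -0.26 ± 0.34, and none of these was called.

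Alox5ap (chr5:149264767-149288153, plus strand), which presents arachidonic acid to 5-lipoxygenase, fell in the Y86C homozygotes. They gave 8.58, 10.9 and 15.0 CPM, the +/Y86C heterozygotes 22.3, 32.4 and 42.4 CPM, and the wild types 22.4, 34.0 and 42.2 CPM. The 3 homozygotes lay below all 6 other libraries of the table. The log2 fold change was -1.31 ± 0.28 over wild type (adjusted p = 0.000797) and -1.31 ± 0.28 over the heterozygotes (adjusted p = 0.00124). The heterozygotes over wild type gave 0.00 ± 0.25.

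In the C442G homozygotes Alox5ap ran between 13.3 and 22.2 CPM with a median of 18.8 CPM, against 25.4, 41.6 and 53.1 CPM in wild type. The groups did not overlap, and the fall of 0.89 on the log2 scale (SE 0.34, adjusted p = 0.0469) was called, although 7 of 9 fits without 1 library lost it (adjusted p up to 0.237). In the C57BL/6 nulls Alox5ap averaged 52.3 ± 15.7 CPM and in their wild types 27.8 ± 7.54 CPM, with overlap and no call (1.06 ± 0.42, adjusted p = 0.0789). Across the 73 libraries, deviations of Alox5ap from its group mean had a Pearson r of -0.462 with log2 total counts, the farthest from 0 of the 8 members examined, and the part of depth in these results was not tested.

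**Figure D2:**
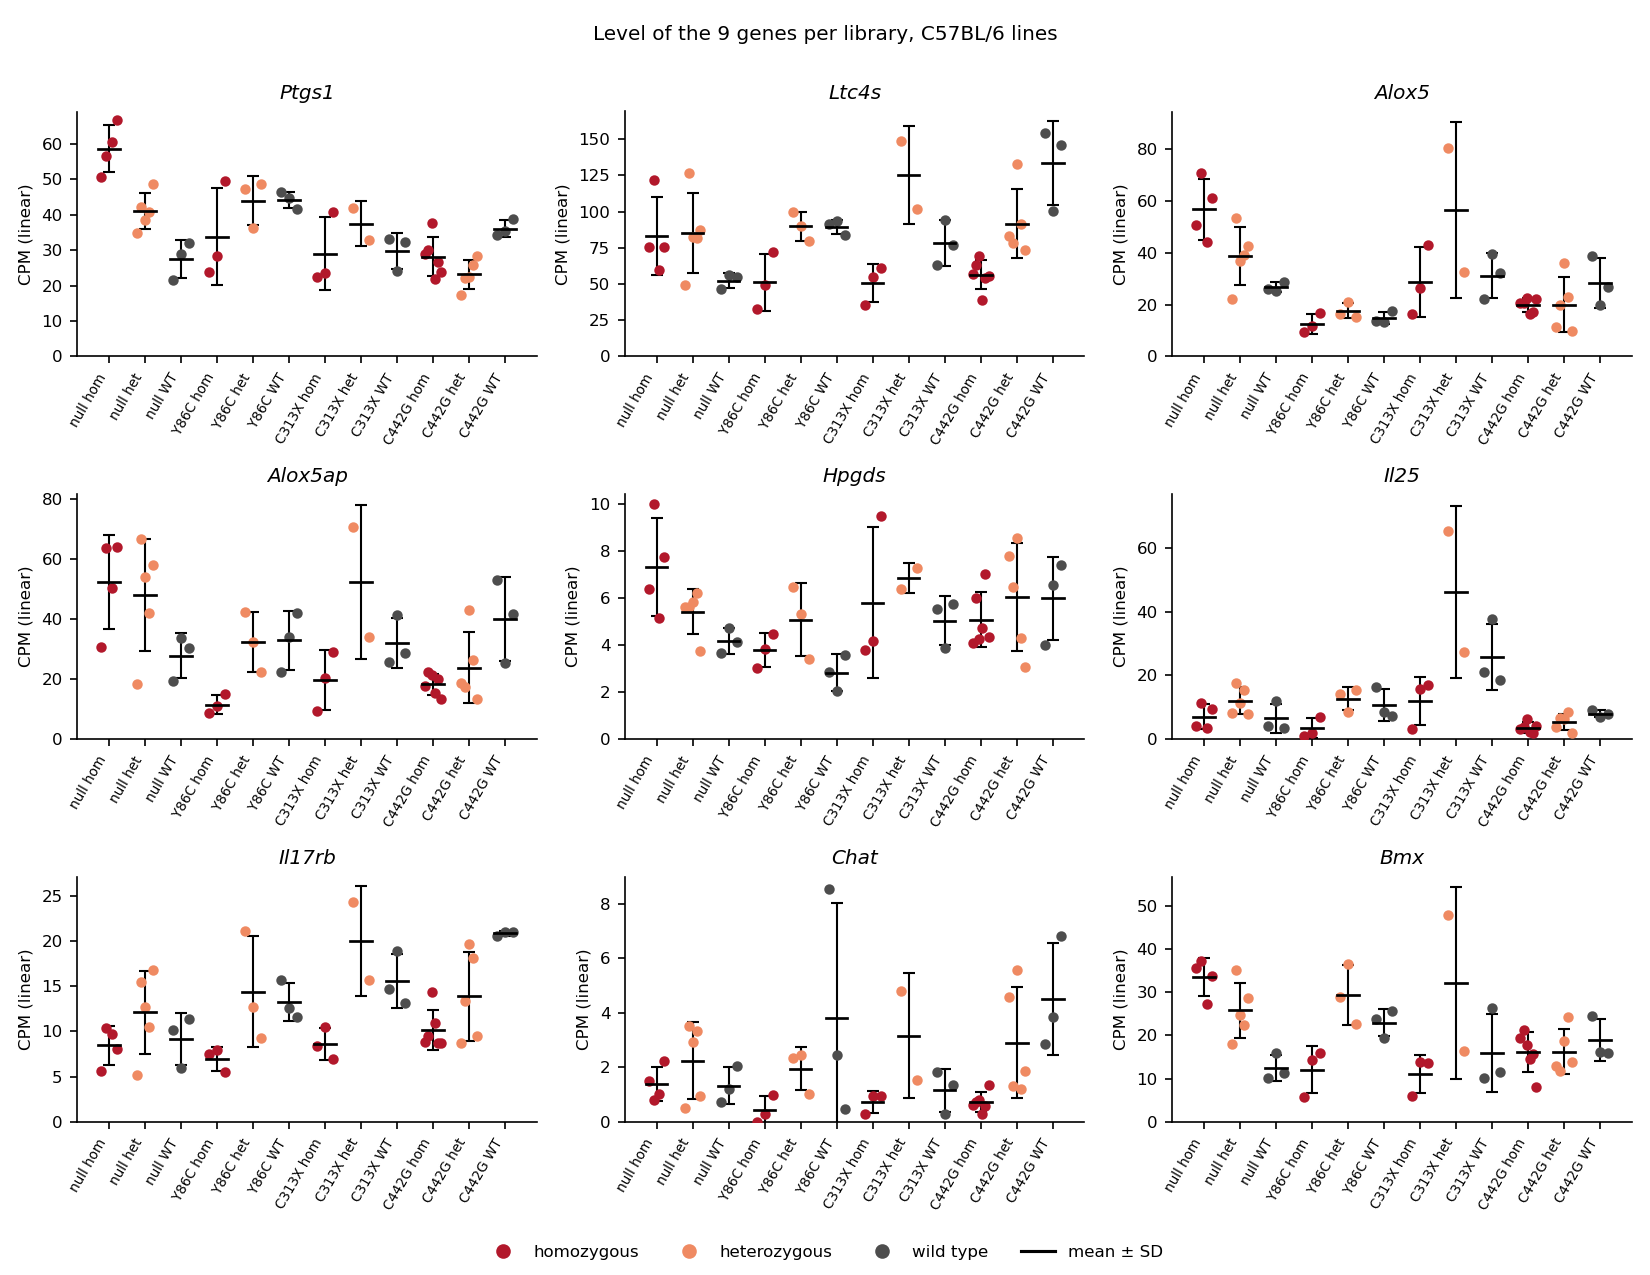
CPM of each member in every C57BL/6 library (points), with the mean and SD of each group, homozygotes left of heterozygotes and wild types in each table. Within the null table Ptgs1, Alox5 and Bmx average highest in the homozygotes, and Ltc4s and Alox5ap lie below wild type in the Y86C and C442G homozygotes.

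Ltc4s (chr11:50236461-50238616, minus strand), which makes leukotriene C4, was the member most often called lower, in 5 of 18 comparisons. In the C442G homozygotes it ran between 39.3 and 69.6 CPM with a median of 56.4 CPM. The heterozygotes gave 73.3, 78.6, 82.9, 91.2 and 132.7 CPM, and the wild types gave 100.6, 146.3 and 154.2 CPM. All 6 homozygotes lay below every other library of the table. Ltc4s fell by 1.04 on the log2 scale in the homozygotes against wild type (SE 0.20, adjusted p = 0.000371) and by 0.64 against the heterozygotes (SE 0.18, adjusted p = 0.0138), where 2 of 9 members, Ltc4s and Chat, were called lower and 14.1% of genes were.

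The Y86C homozygotes gave 32.7, 49.4 and 71.8 CPM of Ltc4s, the heterozygotes 79.8, 90.3 and 99.5 CPM, and the wild types 83.9, 91.2 and 93.6 CPM. Homozygotes again lay below all others, with log2 fold changes of -0.62 ± 0.21 over wild type (adjusted p = 0.0277) and -0.66 ± 0.21 over the heterozygotes (adjusted p = 0.0258). Fits without 1 library lost the first of these calls in 4 of 6 (adjusted p up to 0.0946) and the second in 3 of 6 (adjusted p up to 0.0781). Against the heterozygotes 5 of 8 members were called lower, where 23.0% of genes were and 39.0% in either direction. Il25, tested in this table through its wild-type and heterozygote libraries alone, is 1 of those 5. In heterozygotes against wild type none of 8 was called by edgeR or DESeq2 or had an unadjusted p under 0.05, with 3.37% of genes called.

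The C313X homozygotes gave 35.7, 54.9 and 61.4 CPM of Ltc4s, against 101.6 and 149.1 CPM in the 2 heterozygotes and 63.5, 77.1 and 94.6 CPM in wild type. The homozygotes lay below both other groups and the heterozygotes above wild type. The fall against the heterozygotes was called (-1.06 ± 0.24, adjusted p = 0.0102) and was the 1 of 8 members called, where 12.1% of genes were called lower; without heterozygote 3, which had the highest Ltc4s of the table, the adjusted p was 0.122. Against wild type the log2 fold change was -0.46 ± 0.22 (adjusted p = 0.16). By Y-linked counts the C313X homozygotes were all female and the wild types all male, so allele and sex cannot be told apart there. In the C57BL/6 nulls Ltc4s gave 59.6, 75.5, 75.9 and 121.9 CPM, against 46.3, 54.6 and 56.2 CPM in wild type, without overlap and without a call (0.78 ± 0.31, adjusted p = 0.0776).

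Il25 (chr14:54932695-54935837, plus strand) encodes interleukin-25, the tuft cell cytokine that acts on group 2 innate lymphoid cells. The Y86C homozygotes gave 1.11, 2.06 and 6.98 CPM, the heterozygotes 8.62, 14.1 and 15.4 CPM, and the wild types 7.18, 8.51 and 16.4 CPM. All homozygotes lay below the other 6 libraries, 1 of them only just. Il25 fell by 1.68 on the log2 scale against wild type (SE 0.51, adjusted p = 0.012) and by 1.96 against the heterozygotes (SE 0.50, adjusted p = 0.00528). The first call was lost without wild type 2 or homozygote 5 (adjusted p up to 0.0594). Only 1 of the 3 homozygotes reached the 4.05 CPM floor of the filter on low counts. Il25 was thus tested in this table through its wild-type and heterozygote libraries alone, the groups where it was higher.

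In the C442G homozygotes Il25 ran between 1.96 and 6.40 CPM with a median of 3.51 CPM, against 6.83, 7.97 and 9.14 CPM in wild type, without overlap. Its log2 fold change of -0.90 ± 0.37 had an adjusted p of 0.0515 and was not called. The C313X table held the highest Il25 levels, 3.24, 15.7 and 17.1 CPM in homozygotes, 27.2 and 65.4 CPM in heterozygotes and 18.6, 21.2 and 37.7 CPM in wild types. The homozygotes lay below both groups, but neither difference was called (adjusted p = 0.0816 against heterozygotes and 0.256 against wild type). Il25 in the C57BL/6 nulls overlapped wild type (7.09 ± 3.80 CPM in nulls, n = 4, and 6.48 ± 4.64 CPM in wild type, n = 3).

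Il17rb (chr14:29996135-30008896, minus strand), the interleukin-25 receptor chain, fell in the C442G homozygotes. These ran between 8.69 and 14.4 CPM with a median of 9.16 CPM, the heterozygotes gave 8.70, 9.55, 13.4, 18.1 and 19.7 CPM, and the wild types 20.6, 21.0 and 21.1 CPM. Every homozygote and every heterozygote lay below the wild types, which were close to each other. The log2 fold change of the homozygotes was -0.83 ± 0.23 (adjusted p = 0.0036), and that of the heterozygotes, -0.43 ± 0.23, was not called (adjusted p = 0.184). The Y86C homozygotes gave 5.49, 7.47 and 7.94 CPM, against 9.25, 12.7 and 21.2 CPM in heterozygotes and 11.7, 12.6 and 15.7 CPM in wild types. Again no homozygote reached another group, and the difference was called against heterozygotes (-0.74 ± 0.28, adjusted p = 0.0377) but not against wild type (-0.66 ± 0.28, adjusted p = 0.051). The call against heterozygotes was lost in 5 of 6 fits without 1 library, and without heterozygote 10 the log2 fold change was -0.41 (adjusted p = 0.291). The C57BL/6 nulls gave a log2 fold change for Il17rb of -0.06 ± 0.33 over wild type.

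Chat (chr14:32408203-32465989, minus strand), which makes acetylcholine, overlaps Slc18a3, the vesicular acetylcholine transporter gene, on the same strand (chr14:32462438-32464850), so tags of the 2 could be mixed where they overlap. The C442G homozygotes ran between 0.295 and 1.36 CPM with a median of 0.667 CPM, 15 counts in all over 6 libraries, of which none reached the 3.11 CPM floor of the filter on low counts. The heterozygotes gave 1.19, 1.296, 1.85, 4.58 and 5.58 CPM, and the wild types 2.86, 3.83 and 6.83 CPM. Homozygotes lay below wild types, and 1 homozygote overlapped the heterozygotes. Chat fell by 2.32 on the log2 scale against wild type (SE 0.54, adjusted p = 0.000763) and by 1.78 against heterozygotes (SE 0.50, adjusted p = 0.00929), the second call being lost without heterozygote 85 (adjusted p = 0.0691). In the C57BL/6 nulls, where it was too low to test, Chat averaged 1.39 ± 0.623 CPM, against 1.32 ± 0.677 CPM in wild type.

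Bmx (chrX:164192842-164258193, minus strand) had the largest rise of the members in the C57BL/6 nulls. These gave 27.2, 33.7, 35.7 and 37.3 CPM, the heterozygotes 17.9, 22.5, 24.8, 28.6 and 35.1 CPM, and the wild types 10.2, 11.3 and 15.97 CPM. Both null-bearing groups lay above all wild types, and nulls and heterozygotes overlapped. Bmx rose, with a log2 fold change of 1.56 ± 0.21 in the nulls over wild type (adjusted p = 9.63e-07) and of 0.49 ± 0.17 over the heterozygotes (adjusted p = 0.021), where 3 of 8 members were called higher and 16.3% of genes were. The call over the heterozygotes was lost in 4 of 9 fits without 1 library (adjusted p up to 0.0719). In the heterozygotes over wild type it was the 1 of 8 members called (1.07 ± 0.22, adjusted p = 0.0177), where 0.480% of genes were called in either direction, 0.378% higher and 0.102% lower. Leaving out wild type 430 or Aire_wt_434 lost that call (adjusted p up to 0.193).

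The Y86C homozygotes gave 5.81, 14.4 and 15.96 CPM of Bmx, the heterozygotes 22.6, 28.8 and 36.5 CPM, and the wild types 19.5, 23.9 and 25.6 CPM. The homozygotes lay below both groups. Bmx fell by 0.75 on the log2 scale against wild type (SE 0.27, adjusted p = 0.0255), a call lost without wild type 2, wild type 3 or homozygote 4 (adjusted p up to 0.214), and by 1.15 against the heterozygotes (SE 0.26, adjusted p = 0.00133). It averaged 16.1 ± 4.61 CPM in the C442G homozygotes (SD, n = 6) and 18.9 ± 4.92 CPM in their wild types (n = 3), with a log2 fold change of -0.01 ± 0.26.

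The differences between alleles were tested in a joint fit of the 4 C57BL/6 tables, each homozygote against its own wild type. Against the null effect, the Y86C effect was lower for Ptgs1 (-1.297 ± 0.29, adjusted p = 0.0092), Alox5ap (-2.25 ± 0.62, adjusted p = 0.0493) and Bmx (-2.18 ± 0.52, adjusted p = 0.0208), 3 of 9 members where 0.887% of 14547 genes were lower. The C442G effect was lower than that of the null for Ptgs1 (-1.32 ± 0.27, adjusted p = 0.00355), Ltc4s (-1.77 ± 0.36, adjusted p = 0.00499) and Alox5ap (-1.89 ± 0.54, adjusted p = 0.0493), with 1.35% of genes lower. The C313X effect was lower than that of the null for Bmx (-1.93 ± 0.53, adjusted p = 0.04), with 0.784% of genes lower. Bmx is on the X chromosome, and by Y-linked counts the C313X homozygotes were all female and their wild types all male. The joint fit had no term for sex, so allele and sex cannot be told apart in that difference. All comparisons with the null effect share the null libraries. The wild types of the null table averaged the lowest of the 4 wild-type groups for Ptgs1, Ltc4s, Alox5ap and Bmx. For Ltc4s they averaged 52.4 CPM, against 89.5 CPM in Y86C, 78.4 CPM in C313X and 133.7 CPM in C442G wild types. For Ptgs1 these means were 27.5, 44.2, 29.8 and 36.1 CPM. The part of these wild-type levels in the differences was not tested. On library totals the share of called differences that were higher was 9.15% in place of 55.7% for Y86C, 17.1% in place of 53.4% for C442G and 27% in place of 70.9% for C313X.

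The C442G and Ptgs1 difference, and the C442G and Ltc4s difference, held in every fit without 1 library. The 2 calls of Alox5ap were lost in 12 of 13 and 14 of 16 such fits, those of Bmx in 5 and 7 of 13, and that of Ptgs1 in Y86C without wild type 430 or homozygote 4. Between the missense alleles no member was called by edgeR or DESeq2: C442G minus Y86C gave -0.03 ± 0.28 for Ptgs1, -0.51 ± 0.37 for Ltc4s and 0.66 ± 0.50 for Bmx, with 0 of 9 at an unadjusted p under 0.05. In heterozygotes, the C442G effect on Ptgs1 was lower than that of the null allele (-1.09 ± 0.28, adjusted p = 0.0136, with 3.51% of genes lower and a higher share of 38.9%, or 19.5% on library totals), which was lost without wild type 430 (adjusted p = 0.0794).

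**Figure D3:**
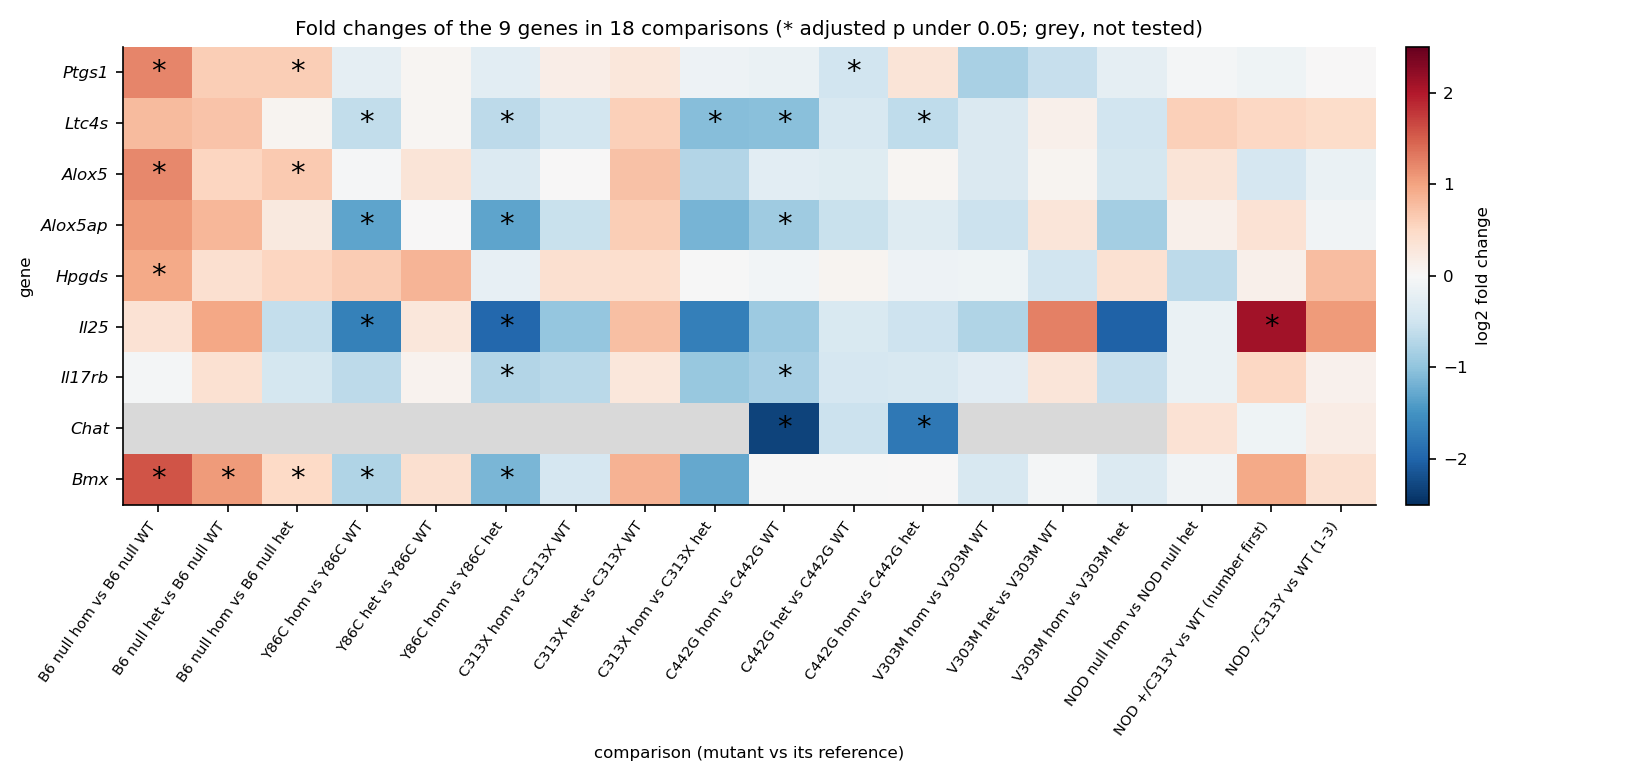
Log2 fold change of each member (rows) in the 18 comparisons (columns) of a mutant group with its wild type or heterozygote, with asterisks for adjusted p under 0.05 and grey where a gene was not tested. Called rises lie in the C57BL/6 null comparisons and in +/C313Y for Il25, and called falls in the Y86C, C313X and C442G comparisons.

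On the NOD background a single member change was called, a rise of Il25 in +/C313Y. The +/C313Y libraries gave 2.86, 3.80, 9.63 and 10.5 CPM, against 0.00, 0.571, 0.971, 2.64 and 3.93 CPM in the 5 wild types. Only 1 wild type lay above the 2 lower mutants. The log2 fold change of Il25 was 2.11 ± 0.57 (adjusted p = 0.0102), the 1 of 9 members called, where 6.36% of 13827 genes were higher and 11% lower. The call held in every fit without 1 library, but at the edge of the threshold in 1 of them (adjusted p up to 0.05 as rounded). Only 1 of the 5 wild types reached the 3.77 CPM floor of the filter on low counts, and they held 0 to 9 counts each. Of all genes called, 36.6% were higher in +/C313Y, 43.3% in -/C313Y and 31.6% in the NOD nulls, and on library totals 23.6%, 30.1% and 16.9%. Ltc4s gave 36.5, 36.5, 43.4 and 56.98 CPM in +/C313Y, against 22.2, 27.2, 29.7, 39.2 and 42.8 CPM in wild type, and 0.52 ± 0.20 was not called (adjusted p = 0.0785).

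In -/C313Y against its wild types none of 9 members was called by edgeR or DESeq2 or had an unadjusted p under 0.05, while 22.7% of genes were called. Il25 gave 3.08, 4.93 and 11.5 CPM in -/C313Y, against 1.38, 4.14 and 5.10 CPM in wild type (1.07 ± 0.60, adjusted p = 0.23). The -/C313Y effect minus that of +/C313Y was -1.04 ± 0.85 for Il25 and was not called (adjusted p = 0.694).

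In NOD Aire -/- against Aire +/- none of 9 was called by edgeR or DESeq2, 1 had an unadjusted p under 0.05, and 13.3% of genes were called, 4.21% higher and 9.11% lower. Set against all 8 NOD wild types, whose titles take other forms, 6 of 9 members were called higher and none lower in the nulls, where 14.8% of genes were higher and 17.4% lower, 32.2% in all. Title form and genotype cannot be told apart in that comparison. Ltc4s gave 68.2, 111.4 and 123.0 CPM in Aire -/- and 68.0, 72.0 and 81.5 CPM in Aire +/- (0.60 ± 0.23, adjusted p = 0.0874). Ptgs1 averaged 42.4 ± 3.25 CPM in Aire -/- and 48.3 ± 8.86 CPM in Aire +/-. Bmx averaged 14.2 ± 5.34 CPM in Aire -/- and 16.95 ± 3.66 CPM in Aire +/-. The NOD minus the C57BL/6 effect of null over heterozygote was -0.65 ± 0.28 for Ptgs1 (adjusted p = 0.343) and -1.18 ± 0.58 for Hpgds (adjusted p = 0.451), with no member called.

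In the V303M table no member was called by edgeR or DESeq2 in any of 3 comparisons, and hardly any gene was: 0.0657% of 13700 in homozygotes against wild type, of which 0.0146% were higher and 0.0511% lower, and 0 in the other 2. At an unadjusted p under 0.05 there was 1 member in homozygotes against wild type, 0 in heterozygotes against wild type and 1 in homozygotes against heterozygotes. Ptgs1 gave 11.8, 17.2 and 21.0 CPM in V303M/V303M, against 10.5, 22.6 and 29.1 CPM in +/V303M and 25.1, 32.9 and 34.3 CPM in +/+. The homozygotes lay below the wild types, at -0.81 ± 0.27 with an adjusted p of 0.546.

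**Figure D4:**
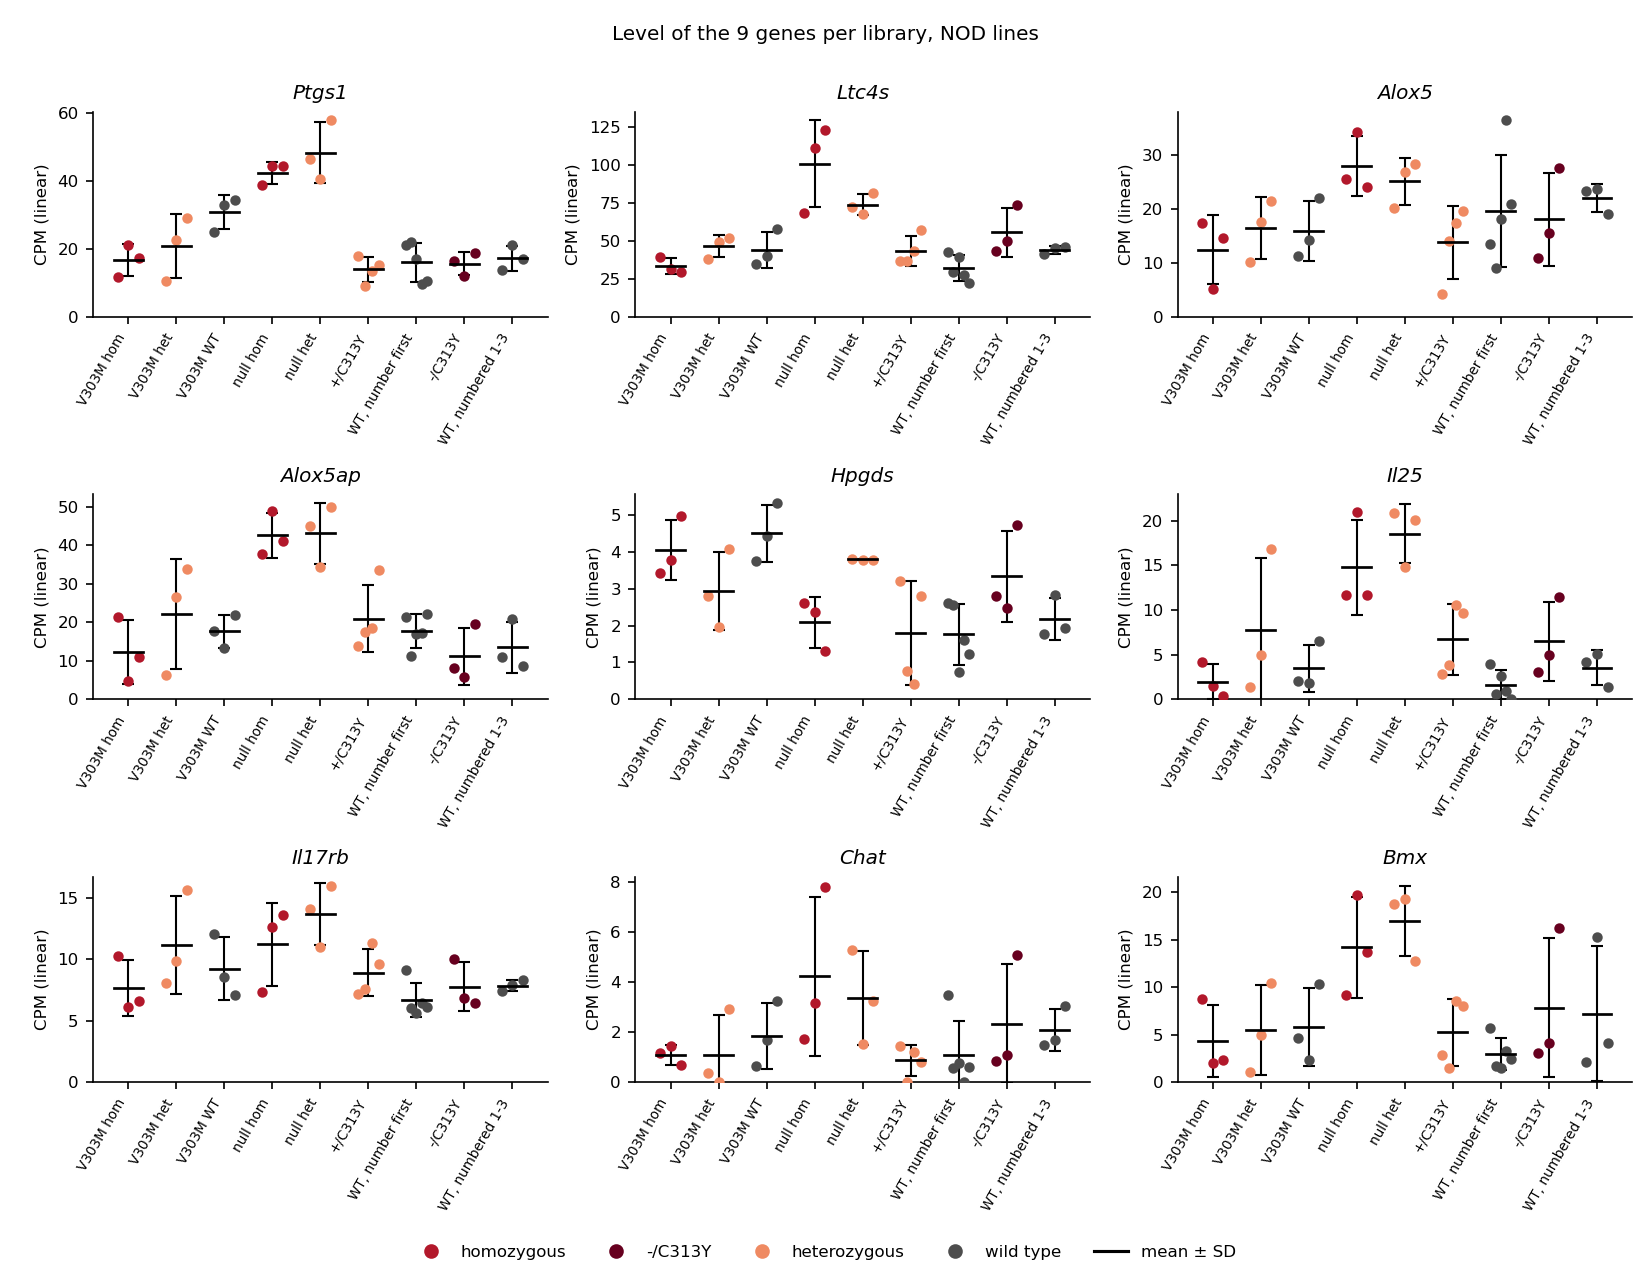
CPM of each member in every NOD library (points), with the mean and SD of each group, mutants left of the wild types or heterozygotes they were compared with. Il25 in +/C313Y, at 2.86 to 10.5 CPM, lies mostly above its wild types, which reach 3.93 CPM.

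The members varied together across libraries to different degrees. Pearson correlations of log2 CPM over the 73 libraries, after subtraction of each table's mean, were 0.82 between Ltc4s and Il25, 0.76 between Bmx and Il25, and 0.75 for Alox5ap with both Bmx and Ltc4s. Hpgds was the most separate, between 0.06 with Il17rb and 0.42 with Ptgs1. With each group's mean subtracted, which leaves only the spread between libraries of 1 genotype, Alox5ap correlated at 0.74 with Alox5 and with Bmx, and Ltc4s at 0.71 with Il25, while Alox5 and Ptgs1 were at 0.01. The values of a library share its depth and its sort, and these correlations are descriptions.

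**Figure D5:**
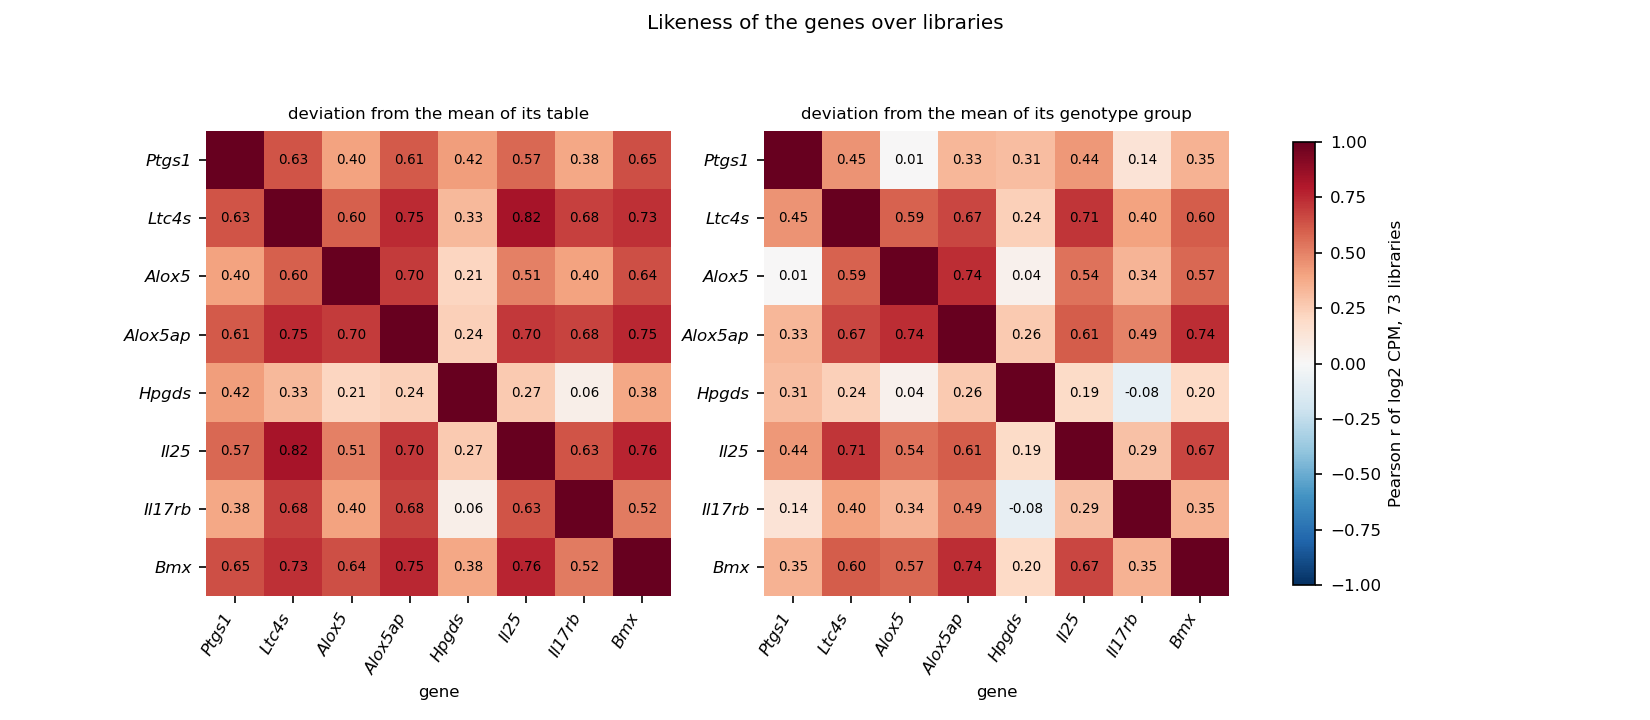
Pearson correlations between members over 73 libraries, after subtraction of table means and of group means. With table means subtracted, Ltc4s, Il25, Alox5ap and Bmx hold the highest values and Hpgds the lowest. With group means subtracted, Alox5ap with Alox5 and with Bmx is highest, at 0.74 each. The lowest value there is -0.08, for Hpgds with Il17rb.

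Among 12570 genes listed in every table and averaging at least 10 counts a library, those whose deviations from table means followed a member most closely were Lrmp (0.86), 1810046K07Rik (0.86) and Trpm5 (0.83) for Bmx, Avil (0.84) and Ly6g6f (0.82) for Ltc4s beside Il25, and Trpm5 and Sh2d7 (0.82 each) for Il25 beside Ltc4s. Alox5ap was nearest to Sh2d7 and Lrmp (0.82 each) and Pik3r5 (0.81), Alox5 to Avil (0.75), Lrmp (0.75) and Trpm5 (0.71), and Ptgs1 to Rgs13 (0.72), Sh2d7 (0.71) and Tchh (0.69). Il17rb was nearest to Adh1 (0.71), Ethe1 (0.70) and Fxyd6 (0.69). Hpgds had no neighbour above 0.53, the value for Dleu2.

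The wider tuft identity list was counted beside the 9 genes, without a test between them. In the C57BL/6 Aire -/- against +/+, 5 of 22 tested identity genes were called higher and 4 lower, where 17.7% and 18.9% of all genes were, with a median log2 fold change of 0.33. Hmx3 (1.48), Sh2d7 (1.09) and Avil (1.001) rose, and Ascl2 fell by 2.63 on the log2 scale. The summed level of the list was 1600 to 1790 CPM in the nulls and 1640 to 1730 CPM in wild type, and so overlapped. In Y86C homozygotes 2 of 22 were higher and 17 lower, where 21.7% and 27.9% of all genes were, with a median of -1.33. The sums were 1310 to 1400 CPM in homozygotes, against 1790 to 1970 CPM in wild type. In C442G homozygotes 3 of 24 were higher and 15 lower (median -0.57), where 19.5% and 23.1% of all genes were. The sums there were 1190 to 1420 CPM in homozygotes, against 1430 to 1590 CPM in wild type. In C313X homozygotes 1 of 24 was higher and 1 lower (median -0.47), where 7.85% and 15.2% of all genes were. In the NOD null and C313Y comparisons between 0 and 2 of 23 were called in each direction. Of all genes, 4.21% to 9.83% were higher and 9.11% to 12.9% lower in those NOD comparisons. Where these markers moved with a member, their part in its change was not tested.

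Mast cells, basophils and eosinophils also use several of these enzymes, and markers of them were measured beside the members. In the C57BL/6 nulls 8 of the 11 tested markers were lower and 3 higher. Mast cell proteases were near 0 in the nulls, with Mcpt1 at 0.429 CPM in nulls, against 19.0 CPM in wild type, and Tpsb2 at 0.291 CPM in nulls, against 13.1 CPM in wild type. Y86C homozygotes had 9 of 12 lower and 3 higher, with Cpa3, Mcpt1, Mcpt8, Tpsb2, Fcer1a and Ms4a2 at 0. C442G homozygotes had 10 of 13 lower and 3 higher. Over all genes, 18.9% were lower and 17.7% higher in the nulls, 27.9% and 21.7% in Y86C and 23.1% and 19.5% in C442G homozygotes. The 3 higher markers were Hdc, Kit and Prg2 in each of these alleles, named after their values were seen, with Hdc at 1510 CPM in the nulls, against 892 CPM in wild type, and 1710 CPM in Y86C homozygotes, against 887 CPM in wild type. The summed level of the whole list was higher in each of these mutants, at 1710 to 2020 CPM in the nulls, against 1190 to 1280 CPM in wild type, 2020 to 2220 CPM in Y86C homozygotes, against 1310 to 1370 CPM in wild type, and 2040 to 2260 CPM in C442G homozygotes, against 1150 to 1470 CPM in wild type. Hdc and Prg2 make up most of these sums, with Prg2 at 318 CPM in the nulls, against 138 CPM in wild type. The median log2 fold change of the tested markers was -4.68 in the nulls, -6.40 in Y86C and -5.30 in C442G homozygotes. Pan-leukocyte markers summed to 1640 to 1870 CPM in the nulls, against 1280 to 1420 CPM in wild type. The part of these cells in the members' changes was not tested.

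Markers of other cells moved in the same comparisons. Neutrophil markers were called lower in 5 of 6 tested in the C57BL/6 nulls and in 5 of 5 in the Y86C, C313X and C442G homozygotes. Their sum was 136 to 396 CPM in the nulls, against 1190 to 2680 CPM in wild type, 84.4 to 122 CPM in Y86C homozygotes, against 1840 to 2320 CPM in wild type, and 119 to 279 CPM in C442G homozygotes, against 1330 to 2010 CPM in wild type. In +/C313Y 5 of 5 neutrophil markers were lower, with a sum of 167 to 199 CPM in +/C313Y, against 424 to 1280 CPM in wild type. Megakaryocyte and platelet markers were lower in 2 and higher in 1 of 5 in the nulls, and lower in 4 and higher in 1 of 5 in both Y86C and C442G homozygotes. Mature mTEC markers were higher in 13 and lower in 2 of 16 in the nulls, higher in 13 and lower in 3 in Y86C and higher in 11 and lower in 2 in C442G homozygotes. Macrophage and dendritic cell markers summed to 957 to 1150 CPM in the nulls, against 711 to 874 CPM in wild type. The part of these shifts in the members' changes was not tested.

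The other eicosanoid genes included called changes in every table but that of V303M, where none of 41 was called in any of the 3 comparisons. Among them, 10 of 37 tested were higher and 6 lower in the C57BL/6 nulls, in Y86C homozygotes 13 and 20 of 41, in C313X 7 and 13 of 43, in C442G 12 and 20 of 41, in the NOD nulls 5 and 5 of 43, in +/C313Y 5 and 11 of 43, and in -/C313Y 9 and 9 of 43. Over all genes, 17.7% were higher and 18.9% lower in the C57BL/6 nulls, and 21.7% and 27.9% in Y86C homozygotes. These shares were 7.85% and 15.2% in C313X and 19.5% and 23.1% in C442G homozygotes. In NOD they were 4.21% and 9.11% in the nulls, 6.36% and 11% in +/C313Y, and 9.83% and 12.9% in -/C313Y. Ptgds, the lipocalin-type prostaglandin D synthase and so the other route to the product of Hpgds, was called lower in each of these 7 comparisons. It fell by 3.06 on the log2 scale in the C57BL/6 nulls (17.3 CPM, against 154 CPM in wild type), by 5.10 in Y86C homozygotes (7.20 CPM, against 286 CPM in wild type), by 4.95 in C313X homozygotes (7.26 CPM, against 256 CPM in wild type) and by 4.67 in C442G homozygotes (11.7 CPM, against 341 CPM in wild type). In NOD it fell by 4.94 in the nulls (3.51 CPM, against 124 CPM in heterozygotes), by 5.04 in +/C313Y and by 4.40 in -/C313Y. Ptgis, the prostacyclin synthase, was at 0.166 CPM in Y86C homozygotes, against 5.90 CPM in wild type. Oxgr1, a receptor for leukotriene E4, rose by 2.11 in the C57BL/6 nulls, and Cysltr2, a receptor for the cysteinyl leukotrienes, rose by 2.35 in -/C313Y.

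Of the other genes of the interleukin-25 and type 2 cytokine axis, 7 of 20 were higher and 6 lower in the C57BL/6 nulls, 7 and 8 of 21 in Y86C, 7 and 5 of 22 in C313X and 8 and 7 of 20 in C442G homozygotes. The shares of all genes were 17.7% and 18.9% in the nulls, 21.7% and 27.9% in Y86C, 7.85% and 15.2% in C313X and 19.5% and 23.1% in C442G. In the nulls the median of the list was 0.13 on the log2 scale, and the 4 genes with the largest called changes, Il17b, Il9, Il33 and Il5, were lower. Il5, which sustains eosinophils, was at 2.30 CPM in the C57BL/6 nulls, against 16.1 CPM in wild type, and Il9 was at 0.921 CPM in the nulls, against 27.1 CPM in wild type. Tslp, an epithelial alarmin, was at 1.73 CPM in Y86C homozygotes and 30.5 CPM in their wild types. Il17b, a further ligand of the Il17rb receptor, had no count in the C57BL/6 nulls and averaged 9.11 CPM in wild type.

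Of the other acetylcholine genes, 6 of 18 were higher and 2 lower in the C57BL/6 nulls, 6 and 5 of 19 in Y86C, 4 and 3 of 20 in C313X and 7 and 4 of 18 in C442G homozygotes. All genes gave 17.7% higher and 18.9% lower in the nulls, 21.7% and 27.9% in Y86C, 7.85% and 15.2% in C313X and 19.5% and 23.1% in C442G. The genes named all encode nicotinic receptor subunits. In the nulls Chrna5 rose by 1.90 and Chrnb2 by 1.65 on the log2 scale, while Chrna2 fell by 4.75 and Chrna4 by 2.05. Of the other TEC family kinases Tec rose in the homozygotes of the 4 C57BL/6 alleles, by 0.63 in the null, 0.78 in Y86C, 0.51 in C313X and 0.48 in C442G, and in the NOD nulls by 0.72.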

How the data were processed

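The authors deposited 6 tables of raw counts per gene from bulk MARS-seq (3′ tag) libraries. The tools named in the submitters' processing notes are HTSeq, STAR 2.4.2a, cutadapt, bcl2fastq and DESeq2, and the build is mm10. The annotation, strand setting and collapse of molecular identifiers are not given in the sources used here. Each gene listed reached at least 6 counts in some library of its table. The authors' normalized columns and fold changes were not used.

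Samples were grouped by title and genotype label. Counts were divided by library totals to give CPM, on which means and SDs stand. Fold changes, standard errors and p-values came from edgeR 4.0.16 in R 4.3.3 (TMM factors, filterByExpr, quasi-likelihood test, robust fit over all groups of a table), with Benjamini-Hochberg adjustment over all genes and a threshold of 0.05. Differences of effects came from joint fits with 1 term per group. The fit was tested on simulated counts. Alternatives were RLE factors, DESeq2 1.42.0, only the 2 compared groups, no filter, a sex term, other NOD wild types, a replicate block, each library left out in turn and, chosen after seeing the data, library totals without scaling factors and Chat left out of the counts. Correlations used edgeR's log2 CPM (prior count 2) for members averaging at least 10 counts. Counting error limits the low members: Chat averaged 5.11 counts a library.

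Named genes were all 9 members, and from each list up to 4 called genes with the largest change and at least 5 mean CPM in the higher group. The members and lists were chosen with earlier results of these data known. Gene positions are from GENCODE vM21 (GRCm38), and start windows from RefSeq (GRCm38.p6).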

Additional observations from a re-analysis of the deposited data

Results flagged for a closer look

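Of 54 sets of 4 to 10 libraries checked for a library far from the others, 3 stood out, where chance gives about 1 in 20. Hpgds was lowest at 3.75 CPM in C57BL/6 Aire +/- library 440, whose nearest neighbour was at 5.61 CPM. NOD wild type 45, whose title reads C313T, was highest in its group for Il17rb at 9.17 CPM, against 6.47 CPM in the next library, and for Chat at 3.49 CPM, against 0.754 CPM.

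The tested differences between alleles stand beside these. Relative to the C57BL/6 null effect, the Y86C homozygous effect was -1.30 for Ptgs1, -2.25 for Alox5ap and -2.18 for Bmx on the log2 scale, the C313X effect -1.93 for Bmx, and the C442G effect -1.32 for Ptgs1, -1.77 for Ltc4s and -1.89 for Alox5ap. Between heterozygotes the C442G effect on Ptgs1 was -1.09 relative to the null allele. The limits given above for the wild-type levels of the tables, and for sex in C313X, hold for these differences too.

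The library titled wild type with the genotype label -/-, used in no comparison, lay above all 3 wild types of its table for Ltc4s at 81.98 CPM, Alox5 at 42.7 CPM, Il17rb at 12.4 CPM and Bmx at 25.3 CPM.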

How the results depend on the processing

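No called change of a member reversed its direction under the alternatives run; changes that were not called were not followed. The number of members called moved by over 1.5 times in these cases. For C313X/C313X against +/C313X (1 called) it was 2 with DESeq2, with library totals and with only the 2 groups, and 0 with a sex term. For +/C442G against +/+ (1) it was 0 without the filter and 2 with library totals, and for C442G/C442G against +/C442G (2) it was 1 with only the 2 groups and 1 without Chat, left out after seeing the data. For NOD Aire -/- against Aire +/- (0) it was 1 with only those groups, and 6 when the nulls were set against all 8 NOD wild types instead; for -/C313Y (0) it was 2 against all 8. Among differences from the C57BL/6 null effect, C313X (1) gave 3 with DESeq2 and 2 with library totals, C442G (3) gave 5 with DESeq2, and the C442G heterozygote (1) gave 2 with DESeq2, RLE factors or library totals. The C442G minus C313X heterozygote difference (0) gave 1 with DESeq2 and 2 with library totals. The cause was not tested.

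Leaving out 1 library gave, for the C57BL/6 null, 3 to 5 in homozygotes and 0 to 2 in heterozygotes against wild type (0 without wild type 430 or Aire_wt_434, 2 without Aire_het_433), and 2 to 3 in homozygotes against heterozygotes. Y86C homozygotes gave 1 to 5 against wild type (1 without wild type 2, 2 without homozygote 5) and 3 to 5 against heterozygotes (3 without heterozygote 10 or 14 or homozygote 5). C313X homozygotes against heterozygotes gave 0 to 3 (0 without heterozygote 3, 2 without 8, 3 without homozygote 14). C442G gave 3 to 4 in homozygotes and 0 to 3 in heterozygotes against wild type (0 without wild type 86 or 89 or heterozygote 81 or 82, 3 without heterozygote 85), and 1 to 3 in homozygotes against heterozygotes (1 without 85). NOD nulls gave 0 to 1 (1 without null 404) and +/C313Y 1 to 2. Differences from the null effect gave 0 to 3 for Y86C, 0 to 2 for C313X, 2 to 4 for C442G and 0 to 3 for the C442G heterozygote, and C442G minus C313X heterozygotes 0 to 1. Where this left 1 library in a group, its spread was taken as that of the others.

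Within a table, replicate numbers recur between -/C313Y and its wild types, and number 3 recurs between a Y86C wild type and a Y86C heterozygote. Pairing was checked for -/C313Y and its wild types alone. There, deviations of same-numbered libraries from their group means correlated at 0.064, -0.04 and 0.163, and those of other pairs at -0.146 to 0.087. With 3 libraries a group, these values cannot decide whether the numbers pair them. The fit with a replicate block called 1 member, against 0 in the main fit. Depth limits Chat, Hpgds and Il25 most.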

Other observations

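In the library titled wild type but with the genotype label -/-, which was put in no group, Ptgs1 was at 29.8 CPM, below the 50.7 to 66.6 CPM of the 4 Aire -/- libraries and inside the 21.5 to 31.9 CPM of the 3 wild types. Alox5ap was at 26.8 CPM, Hpgds at 2.98 CPM, Il25 at 7.95 CPM and Chat at 0.994 CPM.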
